A study of Homo sapiens with 8 samples.

Results

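SULT1E1, the estrogen sulfotransferase, was examined together with 9 other genes of estrogen sulfation, synthesis and reception: SULT1A1, SULT1B1, SULT2B1, STS, HSD3B1, HSD17B2, HSD17B4, CYP19A1 and ESR1. Features were taken by their gene symbol, which gave 12 features of the 29141 tested, for 10 genes of the 20193 distinct symbols. HSD3B1 and ESR1 each had 2 features. The set was built around SULT1E1, which was selected on its higher log2 value after IL13Rα2 knockdown without added IL-13. That comparison describes the choice, and no p is given for it here.

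The cells were MIV-Luc, the luciferase-labeled form of MCF10CA1a, a metastatic human breast carcinoma line of the MCF10A progression series. They stably carried either a scrambled hairpin (shSCR) or 1 hairpin against IL13Rα2 (shIL13Rα2#2), and transduced cells were selected in puromycin and kept as a pool. Each line was mock-treated (− IL-13) or given IL-13 (+ IL-13) at 20 ng/ml over 16 h, with 2 arrays for each of the 4 groups. All 4 groups shared a growth medium with hydrocortisone, insulin, epidermal growth factor, cholera toxin and horse serum. IL13Rα2 is a decoy receptor that binds IL-13 without passing on its signal. The knockdown rests on 1 hairpin, and a difference between the 2 lines cannot be told apart from an effect of that hairpin on other genes or from a difference between the 2 cell pools.

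The authors deposited log2 values from the robust multi-array average (RMA) method, which corrects background, makes the arrays alike in distribution and summarizes the probes of a gene. Medians over the tested features were 5.02 to 5.06 in the 8 arrays, and all pairs of arrays differed. Pearson's r across features was 0.992 to 0.993 within groups and 0.988 to 0.993 between groups, and these features are not independent replicates. IL13RA2, the targeted gene, matched the labels: its mean was 8.08 in shSCR (− IL-13), 6.43 in shIL13Rα2#2 (− IL-13), 9.35 in shSCR (+ IL-13) and 8.19 in shIL13Rα2#2 (+ IL-13) cells. The basal keratin KRT5 (9.46 to 9.98) and the luminal keratin KRT8 (9.81 to 10.41) were bright. The basal KRT14 (6.54 to 7.04) and the luminal KRT19 (4.88 to 5.31) were lower, and KRT17 and KRT18 lay between KRT19 and KRT8. PTPRC of leukocytes (2.27 to 2.71) and LUM of fibroblasts (2.16 to 2.53) were low on every array. Of the other leukocyte and fibroblast markers the highest was CD68, at 6.52 to 7.39. Since RNA of whole cultures was measured, fewer cells of a kind and less RNA per cell cannot be told apart.

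Estrogens circulate and are stored largely as sulfates, which do not bind the estrogen receptor. SULT1E1 adds the sulfate to estradiol and estrone with high affinity, the other SULT enzymes sulfate phenols, thyroid hormones or hydroxysteroids, and STS, the steroid sulfatase, takes the group off again. HSD3B1 and CYP19A1 (aromatase) stand on the route to estrogens, HSD17B enzymes interconvert or degrade them, and ESR1 encodes estrogen receptor α. In breast tissue the balance of sulfotransferase and sulfatase is known to affect how much active estrogen a cell sees.

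SULT1E1 and SULT1B1 lie next to each other on chromosome 4 with a sulfotransferase pseudogene, SULT1D1P, between them, and had the largest knockdown differences of the set without IL-13. The 250 bases before the start of each gene, from RefSeq's GRCh38.p14 promoters, are therefore given, both read on the minus strand at chr4:69860146-69860395 (SULT1E1) and chr4:69760621-69760870 (SULT1B1). Capitals mark the match to a TATA box.
SULT1E1: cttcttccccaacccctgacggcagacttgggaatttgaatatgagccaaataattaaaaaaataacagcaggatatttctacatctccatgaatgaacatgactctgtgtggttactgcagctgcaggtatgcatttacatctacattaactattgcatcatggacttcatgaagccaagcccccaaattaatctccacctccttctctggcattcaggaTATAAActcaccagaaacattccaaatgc
SULT1B1: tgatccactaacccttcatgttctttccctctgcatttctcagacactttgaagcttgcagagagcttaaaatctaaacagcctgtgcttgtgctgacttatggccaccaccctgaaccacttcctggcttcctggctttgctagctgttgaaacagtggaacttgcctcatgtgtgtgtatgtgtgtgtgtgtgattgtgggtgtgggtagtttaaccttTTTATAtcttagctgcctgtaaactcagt
Both stretches held 1 match to TATAAA on either strand, beginning 29 bases before the start; in SULT1B1 the letters run on the opposite strand and read TTTATA. Of 35116 RefSeq promoter windows of the same length, 10.7% held such a match. Neither stretch held TTCNNNNGAA, the spacing bound by STAT6 (5.38% of windows), TTCNNNGAA, the spacing of other STAT factors (6.57%), GGTCANNNTGACC, the estrogen response element (0.0399%), or GNACANNNTGTNC, the glucocorticoid response element (0.327%), all searched on both strands. No motif overlapped another in these stretches, and a missing match says only that the letters are not in this window.

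SULT1E1 (feature 8100808) was lowest in shSCR (− IL-13) cells, at 2.40 and 2.67 on the log2 scale. It was 2.81 and 3.04 in shSCR (+ IL-13), 3.34 and 3.62 in shIL13Rα2#2 (+ IL-13), and 4.14 and 4.57 in shIL13Rα2#2 (− IL-13) cells. The order of the 4 groups was thus shSCR mock, shSCR with IL-13, knockdown with IL-13 and knockdown mock, and no neighboring pair of groups overlapped. The ends of this order are the 2 groups whose gap selected the gene. The smallest step in this order, between the 2 shSCR groups, was 0.39 ± 0.19 (SE).

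The knockdown without IL-13, the comparison on which SULT1E1 was noticed, gave a log2 difference of 1.82 ± 0.19, or 3.54-fold. By this value SULT1E1 ranked 2 among 22039 features with a symbol. A call was defined by a limma adjusted p under 0.05 and a fold change above 2, which 0.0652% of all tested features met in this comparison. SULT1E1 was the 1 gene of the set among them, as its choice implied, and nothing is read from that. SULT1B1, ranked 17 and not called by limma, had a difference of 1.18 ± 0.17 or 2.26-fold. The paper, with its own test, lists both SULT1E1 and SULT1B1 as differentially expressed in this comparison. STS, ranked 283, was 1.41-fold higher. These ranks and folds describe how the set came about.

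The arrays of IL-13-treated cells were not part of that comparison and allow a test. Among them SULT1E1 was higher in the knockdown on both arrays, by 0.56 ± 0.19 on the log2 scale (1.47-fold, 95% interval 0.13 to 0.99), but did not pass the test over all features (limma adjusted p = 0.594). Without each array in turn the difference was 0.42 to 0.70, with adjusted p from 0.536 to 0.914. The IL-13 differences of SULT1E1 had opposite signs in the 2 lines. It was 1.31-fold higher with IL-13 in shSCR cells and 1.83-fold lower in shIL13Rα2#2 cells (−0.88 ± 0.19). Both of these values subtract the mock arrays whose gap selected the gene, which by itself pushes the 2 signs apart, so they are a description only. The same mock arrays enter the single-line IL-13 values of the other genes of the set. Averaged over both lines the IL-13 difference was −0.24 ± 0.13 (adjusted p = 0.659). Knockdown cells with IL-13 stood 0.95 ± 0.19 above mock-treated shSCR cells, or 1.93-fold. This value also subtracts mock arrays that helped to select the gene, and is a description only.

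**Figure D1:**
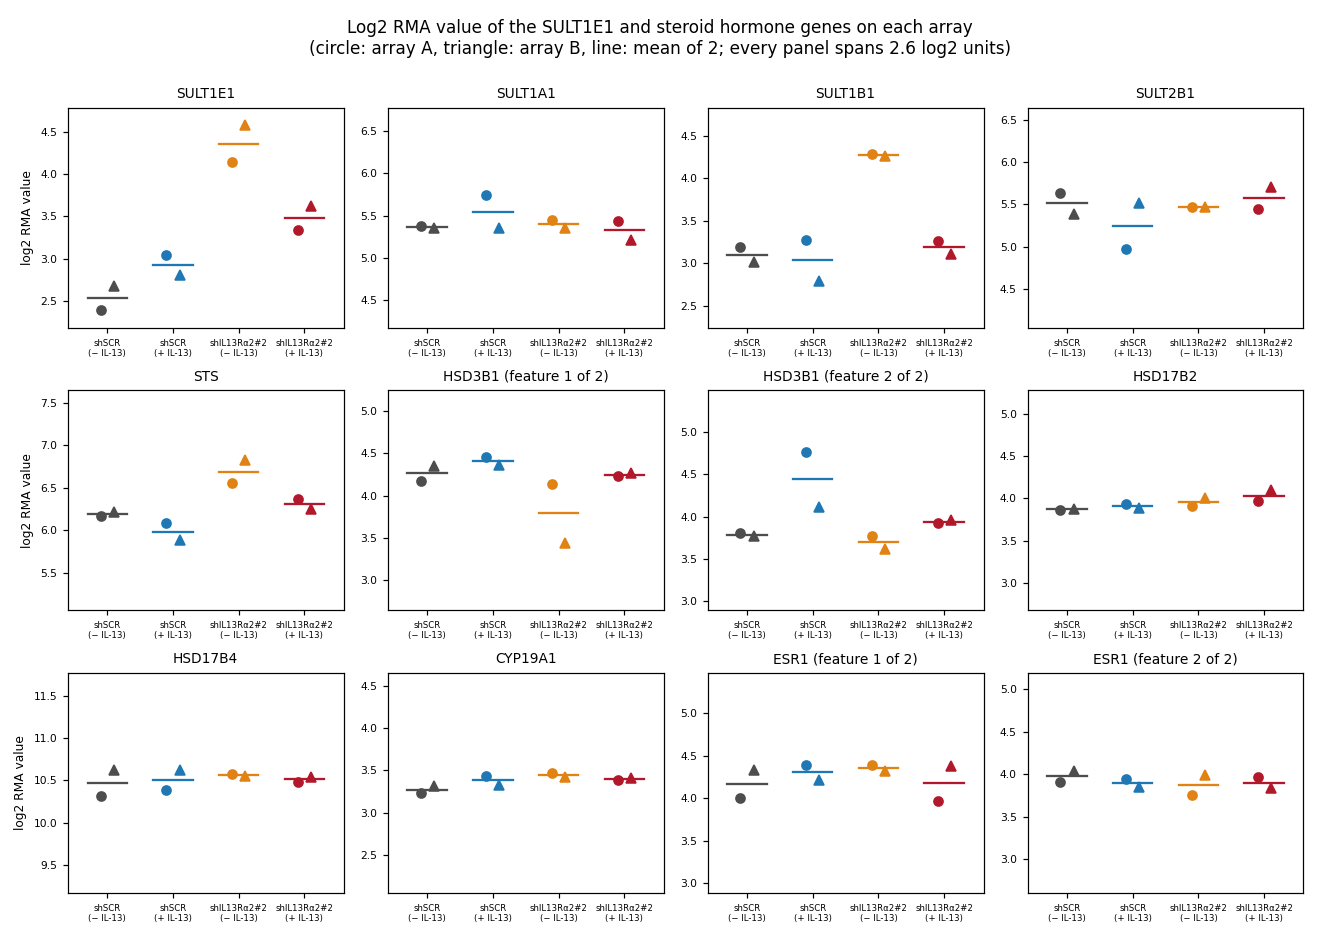
Log2 RMA value (vertical axis) of each of the 12 features on each of the 8 arrays, by group (horizontal axis). Circles are array A, triangles array B, lines the mean of 2, and every panel spans 2.6 log2 units. SULT1E1 and SULT1B1 were highest in shIL13Rα2#2 (− IL-13) cells, at 4.14 to 4.57 and 4.27 to 4.28, while the 4 groups of ESR1 overlapped, at 3.97 to 4.40 and 3.76 to 4.04.

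SULT1B1 (feature 8100798), which sulfates thyroid hormones and small phenols, was 3.01 and 3.19 in shSCR (− IL-13), 2.79 and 3.28 in shSCR (+ IL-13), and 3.11 and 3.26 in shIL13Rα2#2 (+ IL-13) cells. In shIL13Rα2#2 (− IL-13) cells it was 4.27 and 4.28. That group alone stood apart, and the arrays of the 3 others overlapped. Among IL-13-treated cells the knockdown difference was 0.15 ± 0.17 (95% interval −0.23 to 0.54, limma adjusted p = 0.905), and 0.40 or −0.09 without array A or array B of the shSCR (+ IL-13) cells. With IL-13, SULT1B1 was 2.13-fold lower in shIL13Rα2#2 cells (−1.09 ± 0.17), and the difference in shSCR cells was −0.07 ± 0.17, again as a description. The mean of both, −0.58 ± 0.12, had the smallest adjusted p of the set for IL-13 (0.18) and did not pass.

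Both features were dim. The array files used here carry no detection calls, so each feature was set beside the 2904 negative control features of the same arrays, whose mean values had a median of 4.19 and a 75th percentile of 6.07. The SULT1E1 mean over all 8 arrays exceeded 33.7% of these controls and that of SULT1B1 35%. Only the arrays of shIL13Rα2#2 (− IL-13) cells held SULT1B1 above the control median, and of SULT1E1 only array B of that group. The fold changes of both genes are those of the RMA scale near background.

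SULT1A1 (feature 8000590), the phenol sulfotransferase, ranged from 5.21 to 5.74, and the 4 groups overlapped. Its near-identical copies SULT1A2, SULT1A3 and SULT1A4 may share probes with it. The knockdown difference was 0.04 ± 0.15 without IL-13 and −0.22 ± 0.15 among IL-13-treated cells (95% interval −0.57 to 0.13, limma adjusted p = 0.831). SULT2B1 (feature 8030067), which sulfates cholesterol and hydroxysteroids, ranged from 4.98 to 5.71, with both extremes in IL-13-treated cells. Its knockdown difference was −0.05 ± 0.19 without and 0.33 ± 0.19 with IL-13 (95% interval −0.11 to 0.77, adjusted p = 0.798). Both intervals among IL-13-treated cells included 0. Without array A or without array B of the shSCR (+ IL-13) cells that difference was −0.03 or −0.41 for SULT1A1 and 0.06 or 0.60 for SULT2B1.

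**Figure D2:**
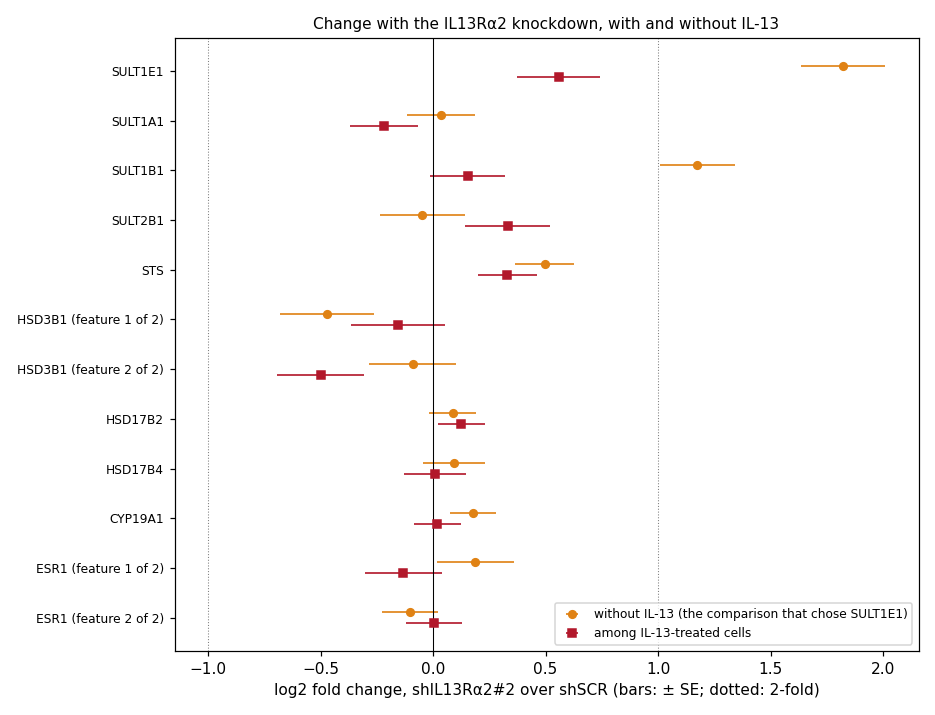
Log2 fold change of shIL13Rα2#2 over shSCR cells (horizontal axis) for each feature, without IL-13 (circles) and among IL-13-treated cells (squares); bars are ± SE and dotted lines mark 2-fold. SULT1E1 and SULT1B1 lie past 2-fold without IL-13 (1.82 and 1.18) and at 0.56 and 0.15 with IL-13.

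STS (feature 8165866), the sulfatase that acts against the SULT enzymes, was 6.17 and 6.22 in shSCR (− IL-13), 5.88 and 6.08 in shSCR (+ IL-13), 6.55 and 6.82 in shIL13Rα2#2 (− IL-13), and 6.25 and 6.37 in shIL13Rα2#2 (+ IL-13) cells. The group ranges did not overlap in either knockdown comparison or in either IL-13 comparison. Among IL-13-treated cells the knockdown difference was 0.33 ± 0.13 (1.26-fold, 95% interval 0.02 to 0.64), which did not pass (limma adjusted p = 0.678). IL-13 averaged over both lines gave −0.30 ± 0.09 (95% interval −0.51 to −0.08, adjusted p = 0.426). STS, which removes sulfate, and SULT1E1, which adds it, both had their highest values in shIL13Rα2#2 (− IL-13) cells.

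HSD3B1, which converts pregnenolone and related steroids, is nearly identical to HSD3B2. Its 2 features had the same signs in both knockdown comparisons and in both IL-13 comparisons, but differed in size. Feature 7904414 was 4.17 and 4.35 in shSCR (− IL-13), 4.36 and 4.45 in shSCR (+ IL-13), 3.44 and 4.14 in shIL13Rα2#2 (− IL-13), and 4.23 and 4.27 in shIL13Rα2#2 (+ IL-13) cells. Feature 7904421 was 3.77 and 3.81, 4.12 and 4.77, 3.62 and 3.78, and 3.92 and 3.96 in the same groups. The first was low on 1 array of shIL13Rα2#2 (− IL-13) cells, and the second was high on 1 array of shSCR (+ IL-13) cells. In the second feature the knockdown difference among IL-13-treated cells was −0.50 ± 0.19 (95% interval −0.95 to −0.05, limma adjusted p = 0.662). Without array A or array B of the shSCR (+ IL-13) cells that difference was −0.18 or −0.83. For the first feature the knockdown difference over all arrays was −0.16 ± 0.21 (adjusted p = 0.923). IL-13 averaged over both lines gave 0.30 ± 0.15 and 0.45 ± 0.14 for the 2 features (adjusted p = 0.627 and 0.403). For the first this value was 0.47 or 0.12 without array A or array B of the shIL13Rα2#2 (− IL-13) cells, and for the second 0.29 or 0.61 without array A or array B of the shSCR (+ IL-13) cells.

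CYP19A1 (feature 7988767), the aromatase that makes estrogens from androgens, lay between 3.23 and 3.47 on all arrays, and its mean exceeded only 34.6% of the negative controls. Its knockdown difference was 0.18 ± 0.10 without IL-13 and 0.02 ± 0.10 among IL-13-treated cells (95% interval −0.22 to 0.26). HSD17B2 (feature 7997491), which oxidizes estradiol to estrone, lay between 3.86 and 4.09, with a mean above 45.8% of the negative controls. Among IL-13-treated cells it differed by 0.12 ± 0.11 (95% interval −0.12 to 0.37). HSD17B4 (feature 8107532), a peroxisomal enzyme of fatty acid oxidation that also oxidizes estradiol, lay at 10.32 to 10.63, and its mean exceeded that of 97.2% of the negative controls. Its difference among IL-13-treated cells was 0.01 ± 0.14 (95% interval −0.31 to 0.32). None of these 3 genes passed the test in either tested comparison, with limma adjusted p from 0.871 to 0.997 for the knockdown and 0.885 to 0.995 for IL-13 averaged over both lines.

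ESR1 was measured by feature 8122840, at 3.97 to 4.40, and feature 8122843, at 3.76 to 4.04. These values exceeded 51.4% and 45% of the negative controls, and the 4 groups overlapped in both. The knockdown differences among IL-13-treated cells were −0.13 ± 0.17 (95% interval −0.53 to 0.26) and 0.00 ± 0.12 (95% interval −0.28 to 0.29). For IL-13 averaged over both lines they were −0.02 ± 0.12 and −0.02 ± 0.09. The level of this receptor's mRNA was thus no higher than that of many negative control features in any group.

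**Figure D3:**
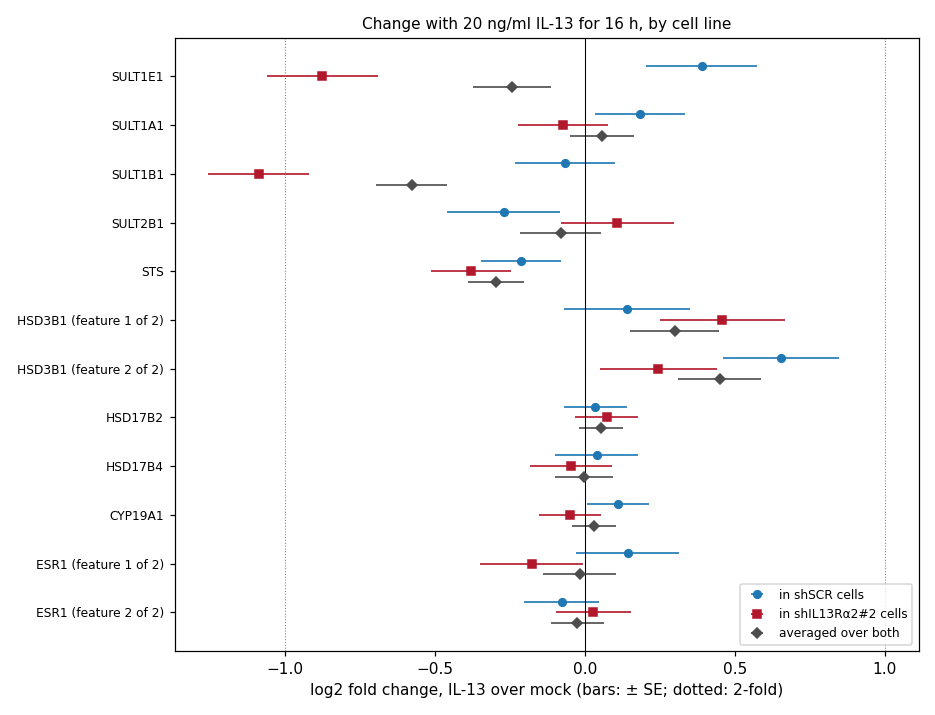
Log2 fold change with IL-13 over mock treatment (horizontal axis) for each feature, in shSCR cells (circles), in shIL13Rα2#2 cells (squares) and averaged over both (diamonds); bars are ± SE and dotted lines mark 2-fold. SULT1E1 and SULT1B1 lay below mock in knockdown cells (−0.88 and −1.09), and their values in shSCR cells were 0.39 and −0.07.

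Over the whole set, 0 of the 10 genes were called by limma for the knockdown in cells given IL-13, where 0.0515% of all tested features were. At an unadjusted p under 0.05 there were 3 genes (SULT1E1, STS and HSD3B1), or 25% of the 12 features against 7.07% of all features. Groups did not overlap in 5 of 12 features, against 36.4% of all features. For IL-13 averaged over both lines 0 genes were called against 0.0927% of features, and 3 genes (SULT1B1, STS and HSD3B1) had an unadjusted p under 0.05, or 25% of the features against 8.73%. The methods' one-way analysis of variance also called 0 of them in either comparison, with or without adjustment. For IL-13 it set all arrays with IL-13 against all mock arrays, so differences between the lines entered its error. The comparisons that the paper lists were between single groups. The limma adjusted p of the 12 features ran from 0.594 to 0.998 for the knockdown and from 0.18 to 0.995 for IL-13. Without IL-13 the knockdown groups did not overlap in 6 of 12 features, 5 of them higher and 1 lower, against 41.2% of all features, and nothing is read from this count either, since that comparison chose SULT1E1. The median difference over the 12 features was 0.09 in that comparison, 0.01 among IL-13-treated cells and −0.01 for IL-13 averaged over both lines, and over all features −0.01, 0.00 and 0.01.

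The rest of the pathway was described through 11 lists from general knowledge with 129 genes outside the set. These lists were chosen with earlier results of these data known. The shares below are therefore descriptions, and no enrichment is read from them. With IL-13 in shSCR cells 2 of the 129 genes were called (1.55%, against 0.0583% of all features), both higher: ABCC2 and SLC26A2. The paper also lists both as raised in this comparison. With IL-13 in shIL13Rα2#2 cells 1 was called (0.775%, against 0.0618%), ABCC2, and for IL-13 averaged over both lines ABCC2 and SLC26A2 again. For the knockdown 0 were called without IL-13 (against 0.0652% of all features) and 0 among IL-13-treated cells (against 0.0515%). Calls were rare over all features, so nothing is read from the lists below in which 0 genes were called. At an unadjusted p under 0.05 there were 11 of the 129 genes without IL-13 (against 9.51% of all features), 13 among IL-13-treated cells (against 7.07%) and 17 for IL-13 in shSCR cells (against 6.79%). The calls of ABCC2 and SLC26A2 depended on single arrays. In each IL-13 comparison some fits that left out 1 array lost a call, and in shSCR cells every such fit did. After adjustment the methods' test called 0 of the list genes for IL-13 in shSCR cells and 0 in shIL13Rα2#2 cells. For IL-13 over both lines it called 1, with the lines pooled.

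ABCC2, an efflux pump for sulfated and glucuronidated steroids, was 6.95 and 7.12 in shSCR (− IL-13) and 8.42 and 8.44 in shSCR (+ IL-13) cells. It was 6.83 and 6.87 in shIL13Rα2#2 (− IL-13) and 8.31 and 8.35 in shIL13Rα2#2 (+ IL-13) cells. IL-13 raised it by 1.44 ± 0.08 over both lines (limma adjusted p = 0.000471), by 1.39 ± 0.11 in shSCR cells (adjusted p = 0.0102) and by 1.48 ± 0.11 in shIL13Rα2#2 cells (adjusted p = 0.00476), while the knockdown differences were −0.19 ± 0.11 and −0.10 ± 0.11. The other 12 transporters were not called. ABCG2, which exports estrone sulfate, differed by 0.15 ± 0.09 with IL-13 over both lines (adjusted p = 0.673).

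SLC26A2, which brings sulfate into the cell, was 5.53 and 5.66 in shSCR (− IL-13), 6.65 and 6.83 in shSCR (+ IL-13), 6.36 and 6.45 in shIL13Rα2#2 (− IL-13), and 7.31 and 7.33 in shIL13Rα2#2 (+ IL-13) cells. No group overlapped another, and within each line both arrays with IL-13 were the higher ones. IL-13 raised it by 1.03 ± 0.08 over both lines (limma adjusted p = 0.00321) and by 1.14 ± 0.11 in shSCR cells (adjusted p = 0.0208), and in shIL13Rα2#2 cells the difference of 0.91 ± 0.11 did not pass (adjusted p = 0.065). The knockdown differences were 0.81 ± 0.11 without and 0.58 ± 0.11 with IL-13 and did not pass (adjusted p = 0.0997 and 0.248). PAPSS2, which makes the sulfate donor PAPS that every sulfotransferase uses, differed by 0.54 ± 0.12 with IL-13 over both lines (adjusted p = 0.225). The other 6 genes of sulfate donor supply were not called in any comparison.

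**Figure D4:**
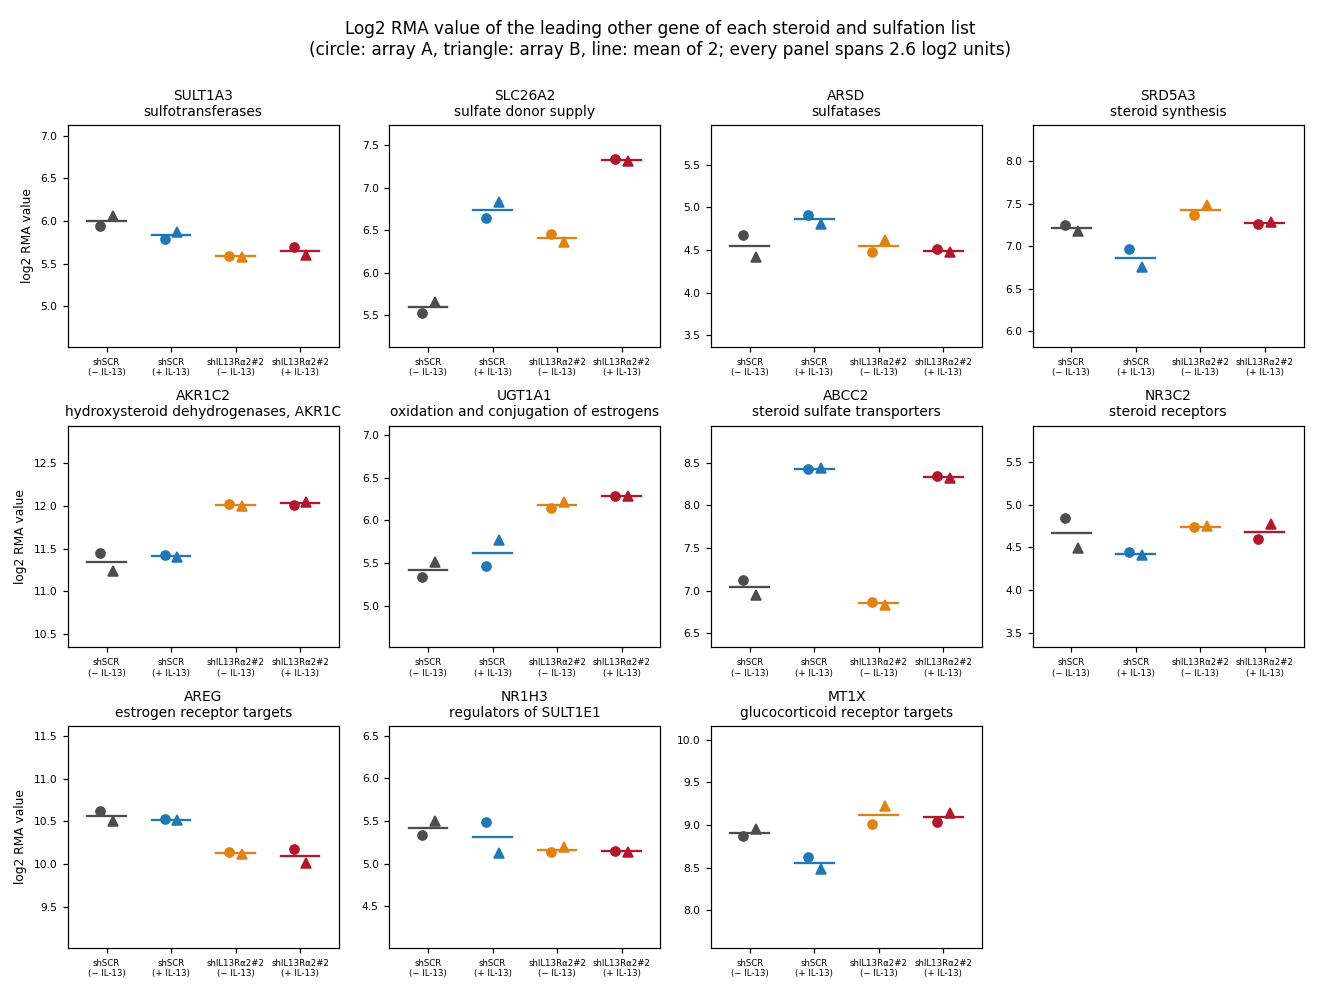
Log2 RMA value (vertical axis) of the gene with the smallest p over the 4 groups in each of the 11 lists, on each of the 8 arrays by group (horizontal axis); circles are array A, triangles array B, lines the mean of 2, and every panel spans 2.6 log2 units. ABCC2 separates by IL-13 (6.83 to 7.12 without, 8.31 to 8.44 with), and AKR1C2 by line (11.24 to 11.45 in shSCR, 12.00 to 12.05 in knockdown cells).

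Among the hydroxysteroid dehydrogenases outside the set, AKR1C2, which reduces progesterone and dihydrotestosterone, was 11.24 and 11.45 in shSCR (− IL-13) and 12.00 and 12.03 in shIL13Rα2#2 (− IL-13) cells. It was 11.41 and 11.42 in shSCR (+ IL-13) and 12.02 and 12.05 in shIL13Rα2#2 (+ IL-13) cells. The lines did not overlap, and the differences of 0.67 ± 0.11 and 0.62 ± 0.11 did not pass (limma adjusted p = 0.144 and 0.192). HSD17B6, which oxidizes androgens, was 3.29 and 3.58 in shSCR (− IL-13) cells and between 2.56 and 2.79 in all others. Its mean exceeded only 24.6% of the negative controls. Neither its knockdown difference without IL-13 (limma adjusted p = 0.193) nor its IL-13 difference in shSCR cells (adjusted p = 0.119) passed. In the oxidation and conjugation list the UGT1A1 feature, which UGT1A family members share, was 0.75 ± 0.13 higher in the knockdown without and 0.66 ± 0.13 with IL-13 (adjusted p = 0.16 and 0.249). CYP1B1, which hydroxylates estradiol, differed by −0.44 ± 0.17 in the knockdown without IL-13 (adjusted p = 0.491).

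Of the 8 other sulfotransferase symbols none was called, and SULT1A3 had the lowest knockdown value without IL-13, −0.41 ± 0.11 (limma adjusted p = 0.32). The 10 sulfatases other than STS ranged from −0.37 to 0.47 for the knockdown with IL-13, and the lowest, ARSD, did not pass (adjusted p = 0.604). In the steroid synthesis list SRD5A3, a reductase also needed for glycosylation, differed by 0.41 ± 0.12 in that comparison (adjusted p = 0.481). The other steroid receptors ranged from −0.13 to 0.26 there, with PGR at 0.12 ± 0.14 (adjusted p = 0.909). Of 16 estrogen receptor targets 0 were called, in comparisons where 0.0515% to 0.0927% of all features were. AREG, a ligand of the epidermal growth factor receptor, differed by −0.44 ± 0.11 without and −0.43 ± 0.11 with IL-13 in the knockdown (adjusted p = 0.319 and 0.426), and CA12 by 0.52 ± 0.14 with IL-13 (adjusted p = 0.433).

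Nuclear receptors and other factors known to regulate SULT1E1 were not called. Their knockdown differences were −0.25 to 0.31 without IL-13 and −0.16 to 0.09 with IL-13, and 0 of 10 reached an unadjusted p under 0.05 in any of the 5 comparisons. NFE2L2, which encodes NRF2, differed by 0.14 ± 0.10 and 0.09 ± 0.10 (limma adjusted p = 0.704 and 0.909). Of 10 glucocorticoid receptor targets 0 were called, and their median difference with IL-13 over both lines was −0.20 (range −0.44 to 0.24), against 0.01 over all features. Of the 10, 5 had an unadjusted p under 0.05, against 8.73% of all features. SGK1 differed by −0.44 ± 0.11 (adjusted p = 0.278) and MT2A by −0.27 ± 0.08 (adjusted p = 0.373). By line, the median IL-13 difference of the 10 was −0.24 in shSCR and −0.15 in shIL13Rα2#2 cells. A limma unadjusted p under 0.05 was reached by 4 of them in shSCR cells, against 6.79% of all features. In shIL13Rα2#2 cells 0 of them reached it. Epithelial markers are given beside these values. TP63, the basal factor, was 1.19 ± 0.17 higher in the knockdown without IL-13 (limma adjusted p = 0.0996). The paper, with its own test, lists TP63 as raised in this comparison and followed it by real-time PCR and Western blotting. In that comparison the 5 basal markers ranged from −0.15 to 1.19, with a median of −0.02 over their features. The 5 luminal ones ranged from −0.64 to 0.22, with a median of −0.25. The part of these markers in the sulfotransferase values was not tested.

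The genes around the SULT1B1 and SULT1E1 pair give the local context. Of the 9 genes and pseudogenes between and on either side of the pair in RefSeq's order (4 on each side), 4 had a feature: UGT2A1, a glucuronosyltransferase, the casein genes CSN1S1 and CSN2, and STATH, a salivary protein. CSN1S1, the nearest to SULT1E1, was 2.65 and 2.68 in shSCR (− IL-13) and 2.86 and 3.08 in shIL13Rα2#2 (− IL-13) cells. The knockdown differences of the 4 genes were −0.26 to 0.31 without IL-13 and −0.08 to 0.38 with IL-13, and their IL-13 differences in knockdown cells were −0.13 to 0.36. The neighbors are given as values only, since SULT1E1 was chosen for its high value in the first of these comparisons.

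**Figure D5:**
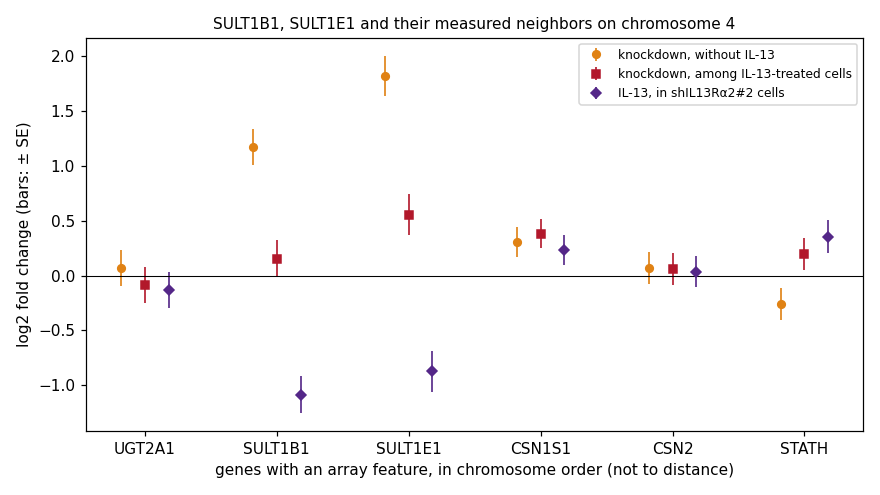
Log2 fold change (vertical axis) of SULT1B1, SULT1E1 and the 4 neighboring genes with a feature, in chromosome order and not to distance (horizontal axis), for 3 comparisons; bars are ± SE. The circles of SULT1B1 and SULT1E1 (knockdown without IL-13) stand at 1.18 and 1.82, and those of the 4 neighbors at −0.26 to 0.31.

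Patterns over the 8 arrays were compared by Pearson's r with every feature that had a symbol, as a description of values that share the same 4 groups. The 5 most like SULT1E1 were BIRC3 (r = 0.987), ABI1 (0.984), ANKRD26 (0.983), RAB18 (0.976) and NF2 (0.972). The means of BIRC3 were 9.65 in shSCR (− IL-13) and 9.87 in shIL13Rα2#2 (− IL-13) cells, and those of ANKRD26 were 6.53 and 7.01. The 5 most like SULT1B1 were BRP44 (r = 0.981), KRTAP21-1 (0.96), RPGR (0.956), GOLGB1 (0.95) and C2orf14 (0.945). None of these 10 genes belonged to the set or to a list of the pathway.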

How the data were processed

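Total RNA of 8 cultures was hybridized to Affymetrix GeneChip arrays, named Human Exon 1.0 ST in the labels and methods. The deposited gene-level features have identifiers like those of Gene ST arrays, so the array type is not settled here. Per the labels and methods, the 2 arrays of each group came from separate biological replicates. The authors deposited log2 values per gene-level feature, made with RMA in Affymetrix Expression Console version 1. The genome build is not given in the sources used here. The table held 33297 features, and after 4156 array controls were set aside 29141 were tested with no filter on signal.

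Columns were assigned to groups by construct and treatment in their headings. Group means were fitted over all 8 arrays with limma 3.58.1 in R 4.3.3 (4 residual and 3.86 prior degrees of freedom), with Benjamini-Hochberg adjustment over all tested features. A gene was called at an adjusted p under 0.05 and a fold change above 2, the limits of the methods. The methods used these limits with a one-way analysis of variance and not with limma. Errors are standard errors of the fit, and intervals are 95%. For arrays, their number limits the precision. The procedure was tested on simulated data.

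The members and the gene lists were chosen with earlier results of these data known. For the members, p-values are given only for the knockdown within IL-13-treated cells and for IL-13 averaged over both lines, neither of which depends on the comparison that chose SULT1E1. Named genes were the members, IL13RA2, up to 3 genes of each list with the smallest p over the 4 groups, any called list gene, the 5 features most correlated with SULT1E1 and with SULT1B1, and their chromosomal neighbors. Of the list genes, SULT1A4, UGT1A3 and UGT2B11 had no feature under their own symbol. Of 4 lists of cell type markers, basal, luminal, fibroblast and leukocyte, 5 genes each were measured. By limma 0 of them were called in any of the 5 comparisons, where 0.0515% to 0.0927% of all features were. Alternatives were the methods' one-way analysis of variance, limma on the 4 arrays compared, other limits for calls, rescaled values, an intensity trend, leaving out the dimmest 30% of features and leaving out each array in turn.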

Additional observations from a re-analysis of the deposited data

Results flagged for a closer look

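The IL-13 differences of SULT1E1 had opposite signs in the 2 lines. Both arrays with IL-13 were above both mock arrays in shSCR cells and below them in shIL13Rα2#2 cells. The difference between the 2 IL-13 effects was −1.265 on the log2 scale. It was not tested, because it contains, with its sign turned, the comparison of mock-treated cells that chose the gene.

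CYP19A1 met the same description with a difference of −0.1581, also not tested. All of its arrays lay between 3.23 and 3.47, and the effects in the 2 lines were 0.11 ± 0.10 and −0.05 ± 0.10 (SE).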

How the results depend on the processing

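In the knockdown comparison among IL-13-treated cells SULT1E1 kept its direction and stayed outside the limits for a call under every alternative that gave a value, with a log2 difference of 0.42 to 0.70 when each array was left out in turn. SULT1B1 ranged from −0.0912 to 0.398 in those fits. The counts of called genes of the set were 0 under every alternative in both tested comparisons. Of the pathway list genes, the count for IL-13 in shSCR cells was 0 with the methods' test after adjustment and with limma on the 4 arrays compared, and 0 to 1 with 1 array left out. For IL-13 in shIL13Rα2#2 cells it was 0, 0, and 0 to 1 in the same settings, and for IL-13 averaged over both lines it was 1 with the methods' test after adjustment and 1 to 2 with 1 array left out. Fewer arrays enter limma on 4 arrays and the fits with 1 array left out, and for the other changes the cause was not tested. In the methods' test of IL-13 averaged over both lines, the lines were pooled. Single arrays also moved SULT1A1 (−0.414 to −0.0273) and SULT2B1 (0.0642 to 0.597) in the knockdown comparison and the first HSD3B1 feature with IL-13 (0.124 to 0.475). Direction turned in differences near 0. With 1 array left out, the knockdown difference among IL-13-treated cells ranged from −0.112 to 0.125 for HSD17B4, −0.0329 to 0.0697 for CYP19A1, −0.34 to 0.0738 for ESR1 feature 8122840 and −0.0645 to 0.0721 for ESR1 feature 8122843. For IL-13 averaged over both lines the range was −0.0786 to 0.072 for HSD17B4, −0.0409 to 0.153 for SULT1A1, −0.214 to 0.0523 for SULT2B1, −0.121 to 0.0864 for ESR1 feature 8122840 and −0.0816 to 0.0328 for ESR1 feature 8122843. With arrays shifted to one median ESR1 feature 8122843 gave −0.0014 in the knockdown comparison, and with a further quantile normalization −0.0098, where HSD17B4 gave 0.0026 for IL-13.

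Of the 12 features, 6 lie in the dimmest 30% (SULT1E1, SULT1B1, HSD17B2, CYP19A1, the second HSD3B1 and the second ESR1 feature) and had no value when those were left out, so the counts in that setting cover the other 6. Limma on 4 arrays was not run for IL-13 averaged over both lines, which uses all 8. No paired analysis was possible because the column headings carry running array numbers and not the replicate numbers of the labels. A lone array of a group was assumed to vary like the other groups.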
